A study of Drosophila melanogaster with 16 samples.

Results

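The genes described here encode the subunits of the proteasome. They were found by name on a one-colour Agilent array of Drosophila melanogaster: every probe that is not a control and whose gene name starts with Prosalpha, Prosbeta, Pros followed by a digit, Rpn or Rpt. This gave 46 probes for 30 genes, of 32162 probes for 23983 genes and unmatched transcripts. Of the 30 genes, 24 encode subunits used throughout the fly: 6 alpha and 4 beta subunits of the core, 5 ATPases and 3 further subunits of the base, and 6 subunits of the lid. The other 6 are extra copies, known in Drosophila from the testis, and are given apart at the end.

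The proteasome is the protease that degrades proteins tagged with ubiquitin. Its core is a barrel of stacked rings, with alpha subunits on the outside that gate the entrance and beta subunits inside, of which Prosbeta1, Prosbeta2 and Prosbeta5 cut peptide bonds. A regulatory particle sits on the barrel: its base holds the ring of Rpt ATPases that unfold the substrate and subunits that bind ubiquitin, and its lid holds Rpn11, the enzyme that removes the ubiquitin chain. The subunits are needed in fixed proportions in one complex, and their genes are known to be regulated together in many organisms.

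The arrays held RNA of antennae or of brains of female flies aged 5 to 7 days, either starved for 28 h or fed, with 4 arrays in each of the 4 groups. Starved flies had moist tissue paper alone, and fed flies had sucrose as well. Each extract was made from 50 flies, that is from 100 antennae or 50 brains, with different flies for each of the 4 repeats, and the labels name no strain and no transgene. Replicates of the same number shared a slide. The 4 groups always had the same places on a slide, so place and group cannot be told apart.

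The tissue labels were borne out by marker genes: 10 of 10 antennal markers were called higher in antennae, by 5.07 to 7.25 on the log2 scale in fed flies, and 9 of 9 neuronal markers were called higher in brain. The feeding labels were not. Of 5 genes commonly raised by food deprivation, 0 were called higher in the arrays labelled starved in either tissue, and 2 in antennae and 3 in brain were called lower. Pepck1, an enzyme of gluconeogenesis, was lower there by 2.97 in antennae and 3.13 in brain (log2). Thor, a brake on translation, was lower by 0.81 and 0.73, and sug, a transcription factor commonly raised by sugar, was higher by 1.65 and 2.94. Whether the feeding labels of these arrays are exchanged was not tested. All directions below are therefore directions between the labels as given, and are written as labelled starved against labelled fed. Between 65.4% and 73.6% of the spots were well above background on each array, with fewer in labelled starved than in labelled fed arrays in both tissues (66.4% against 69.1% in antennae and 68.9% against 72.2% in brain, p = 0.0286 by a two-sided exact permutation test, the lowest p possible with 4 against 4). Saturation did not occur on any spot.

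Levels are log2 signals relative to the 75th percentile of the array. Probes differ in how they bind, so a level is compared between groups of 1 probe and never between genes. A gene is represented by its brightest tested probe, since 15 of the 24 genes have 2 probes. All 24 genes were well above background on every array, apart from 1 value of Prosalpha3 that the scanner software marked as an outlier (brain labelled fed, replicate 3) and that was left out. Each comparison was fitted across all probes with limma, and a gene is called when its Benjamini-Hochberg adjusted p over all probes tested is under 0.05. Some names in the files are old: Rpn10 is filed as Pros54, Rpt2 as Pros26.4, Rpt6 as Pros45, Prosbeta6 as Pros26, and Prosalpha2, Prosalpha3, Prosalpha4 and Prosalpha6 as Pros25, Pros29, Pros28.1 and Pros35. The gene filed as Prosalpha6 is Prosalpha1, which has a near-identical copy, Prosalpha1R. Which of these copies its probes read was not tested.

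**Figure D1:**
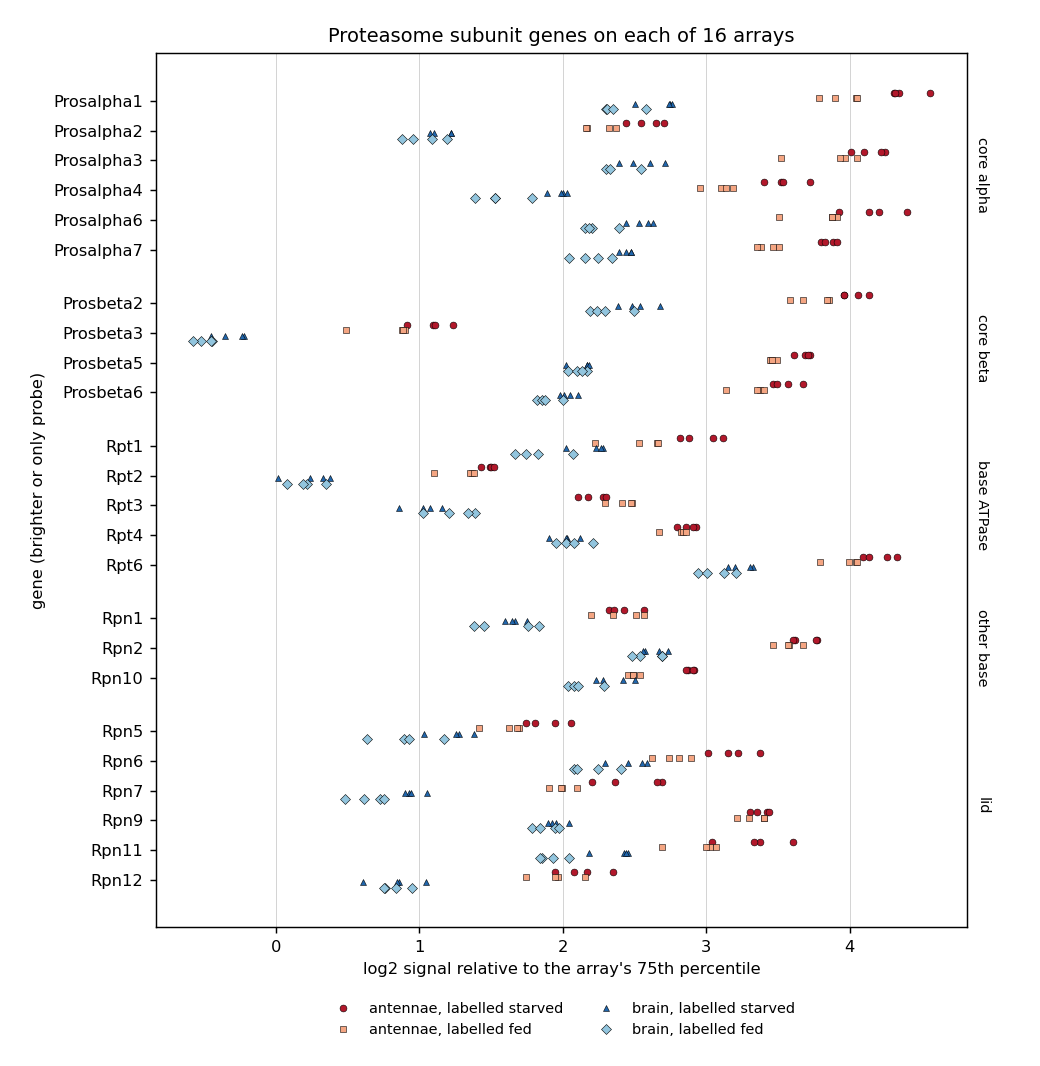
Log2 signal relative to the 75th percentile of the array (x axis) for the brighter or only probe of each of the 24 genes (y axis), with 1 point for each of the 16 arrays. Under the same label, antennae (red and orange) lie above brain (blue) for every gene with no overlap. Across labels, brain labelled starved overlaps antennae labelled fed for Rpn10 (highest 2.50, lowest 2.46) and Rpt1 (2.28, 2.22). By the medians of the 24 genes, the change between labels (0.29 in antennae, 0.18 in brain) is small beside the difference between tissues labelled fed (1.20). For Rpn10 the antennal change (0.40) exceeds that difference (0.36).

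The clearest pattern was between the tissues. In flies labelled fed, all 24 subunit genes were higher in antennae than in brain, all were called, and for all of them the 4 antennal arrays lay above the 4 brain arrays. Over all genes and transcripts tested, 33.3% were called higher in antennae and 31.2% had antennal arrays above all brain arrays. The median difference of the 24 genes was 1.20 on the log2 scale (2.30-fold), beside -0.13 over all genes tested. In bulk tissue, more cells that express a gene and more RNA per cell cannot be told apart. The core subunits had the largest differences and the base subunits the smallest: the medians were 1.51 for alpha, 1.39 for beta and 1.08 for lid subunits, and 0.90 for the ATPases and 0.80 for the other base subunits. No test of a difference between these classes was made.

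Within the core, the differences lay close together. Among the alpha subunits they ran from 1.23 for Prosalpha2 and Prosalpha7 to 1.56 for Prosalpha1 and Prosalpha6, and among the beta subunits from 1.29 for Prosbeta3 to 1.43 for Prosbeta2 and Prosbeta6. The lid was more spread. Rpn9, Rpn7, Rpn12 and Rpn11 were higher in antennae by 1.44, 1.35, 1.13 and 1.03, and Rpn5 and Rpn6 by 0.70 and 0.56. Among the ATPases, Rpt3 and Rpt2 were higher by 1.17 and 1.09, Rpt6 by 0.90, and Rpt4 and Rpt1 by 0.73 and 0.69.

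Rpn10, a ubiquitin receptor of the base, had the smallest difference between tissues. Its levels in flies labelled fed were 2.46, 2.49, 2.54 and 2.49 in antennae and 2.04, 2.08, 2.11 and 2.29 in brain. The groups did not overlap, but the gap was narrow. The difference was 0.36 (SE 0.077, limma adjusted p = 0.00253), against 0.80 for Rpn1 and 0.97 for Rpn2, the large scaffold subunits of the base.

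Prosalpha6 of the core had the largest difference. Its levels were 3.51, 3.91, 3.88 and 3.87 in antennae and 2.15, 2.20, 2.18 and 2.39 in brain of flies labelled fed, so that the lowest antennal array was far above the highest brain array. The difference was 1.56 (SE 0.11, adjusted p = 3.3e-06), or 2.95-fold. Of the catalytic subunits, Prosbeta2, with trypsin-like activity, was higher in antennae by 1.43 (SE 0.10, adjusted p = 2.92e-06) and Prosbeta5, with chymotrypsin-like activity, by 1.35 (SE 0.064, adjusted p = 2.7e-07).

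In flies labelled starved the same comparison, which was added after the data were seen, again gave 24 of 24 genes called higher in antennae, against 36.3% of all genes tested, and 24 of 24 without overlap, against 34.5%. The median was 1.35 (2.55-fold), beside -0.057 over all genes, and the range ran from 0.53 for Rpn10 to 1.69 for Prosalpha1. The arrays of this comparison are not those of the fed comparison. The second, dimmer probe of the 15 genes with 2 probes also gave 15 of 15 called higher in antennae in each condition, by 0.60 (Rpt1) to 1.70 (Prosalpha1) in flies labelled fed.

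**Figure D2:**
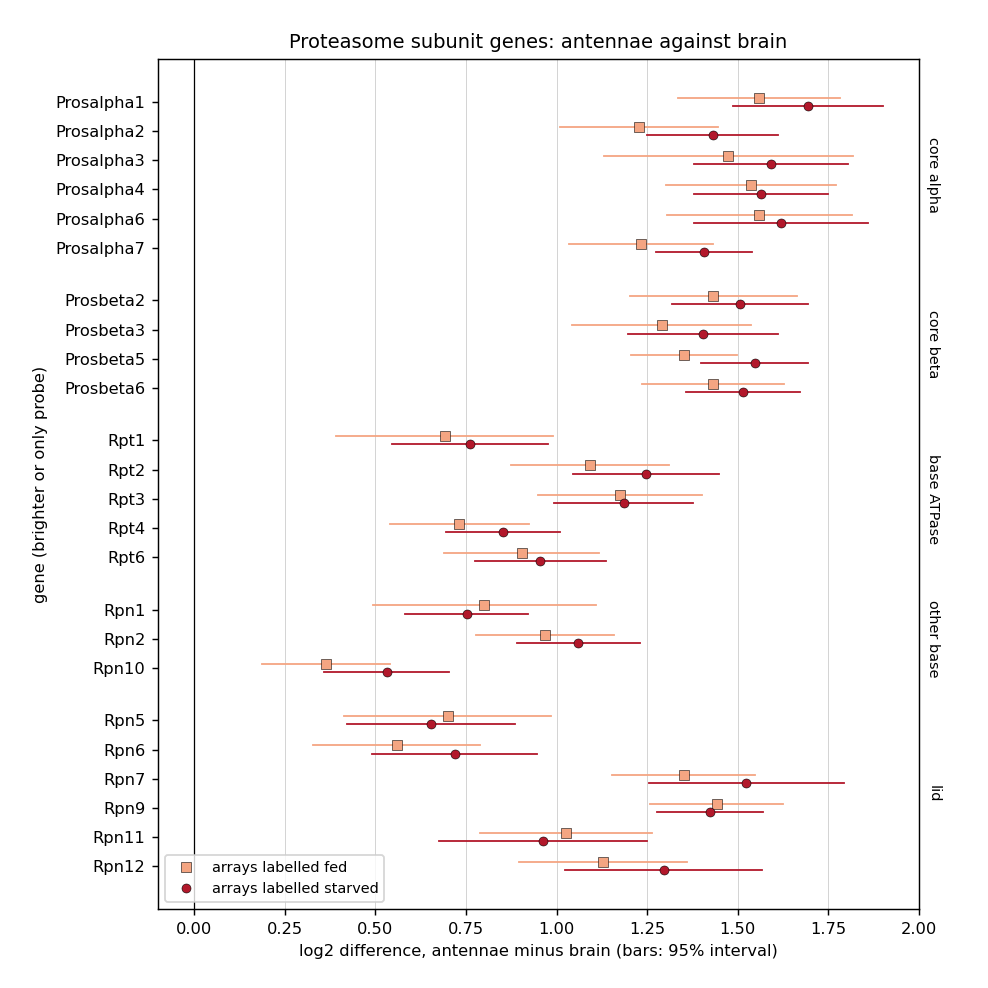
Log2 difference, antennae minus brain (x axis), for each of the 24 genes (y axis), in arrays labelled fed (squares) and labelled starved (circles), with 95% intervals from the limma fits. All intervals lie above 0, Rpn10 is lowest at 0.36 and 0.53, and the core subunits lie between 1.23 and 1.69.

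Markers of other tissues moved between antennae and brain as well. All 6 of 6 muscle markers were called higher in antennae than in brain in flies labelled fed, by 1.05 to 2.05, and 1 of 6 was called higher in flies labelled starved, with medians of 1.41 and 0.67. The summed level of the muscle list (log2 of its summed signal) was 4.96 to 5.57 in antennae and 3.60 to 3.98 in brain labelled fed, and 3.95 to 5.66 and 4.09 to 4.39 in those labelled starved. Of the fat body markers, 3 of 5 tested were called lower in antennae than in brain labelled fed and 5 of 5 in those labelled starved. Under each label, 5 of 6 photoreceptor markers were called lower in antennae, and of 4 glial markers 2 were called higher and 2 lower. Of the testis markers, 4 were called higher and 2 lower under each label, with 10 and 9 tested. The part of any of these cells in the result was not tested.

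Between the feeding labels the differences were much smaller by the median and pointed mostly upward. In antennae, 10 of the 24 genes were called higher in arrays labelled starved and 0 lower, whereas 11.1% of all genes tested were called higher and 17.2% lower. The 10 genes were 4 alpha subunits (Prosalpha1, Prosalpha2, Prosalpha4 and Prosalpha7), the catalytic subunits Prosbeta2 and Prosbeta5, the ATPase Rpt1, the ubiquitin receptor Rpn10 and the lid subunits Rpn6 and Rpn7. The change was above 0 for 23 of the 24 genes (47.4% of all genes tested), and for 16 the 4 arrays labelled starved lay above the 4 labelled fed (13.7% of all). The median change was 0.29 on the log2 scale (1.22-fold), beside -0.018 over all genes. By class, the medians were 0.40 for alpha, 0.34 for lid, 0.26 for beta, 0.18 for ATPase and 0.12 for other base subunits.

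In brain, 7 of the 24 genes were called higher in arrays labelled starved (11.6% of all genes tested) and 0 lower (20.9%). They were Prosalpha1, Prosalpha4, Prosalpha6 and Prosalpha7 of the core, Rpt1 of the base, and Rpn7 and Rpn11 of the lid, and 0 of the 4 beta subunits were among them. The change was above 0 for 22 of 24 genes (42.7% of all), but the arrays of both labels were fully apart for only 5 (12.5% of all). The median change was 0.18 (1.13-fold), beside -0.067 over all genes, and 0.10 where the probes of a gene were averaged. Prosalpha1, Prosalpha4, Prosalpha7, Rpn7 and Rpt1 were called in both tissues, 12 genes in at least 1 tissue and 12 in neither. The share of all genes called in both tissues was not computed, so these counts only list the genes. When 1 brain array was left out, the brain calls of Prosalpha4 and Rpn11 held in 8 of 8 fits. Those of the other genes called in brain held in 1 to 3. In brain the second probes of Rpt1 and Prosalpha7 changed by -0.30 and -0.093, and those of Prosalpha1 and Prosalpha4 by 0.23 and 0.45.

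**Figure D3:**
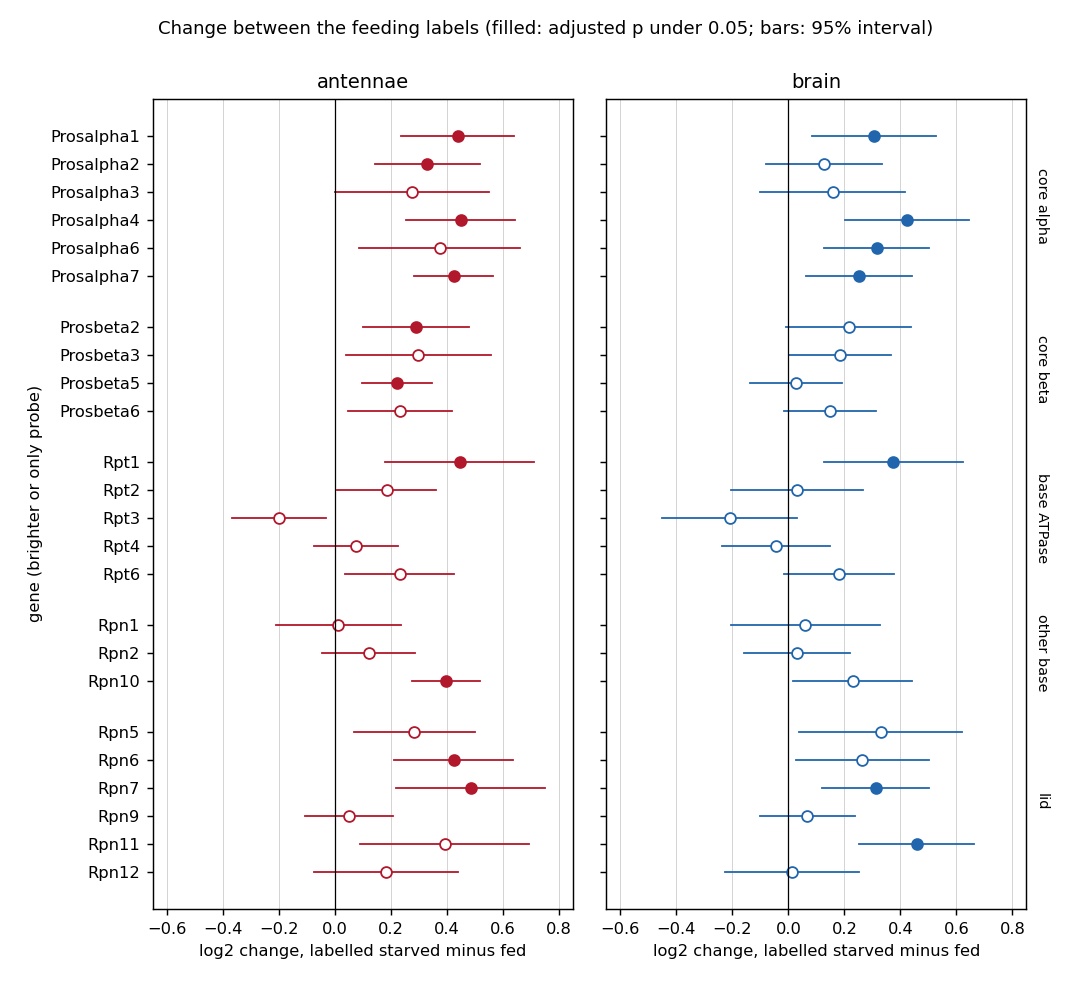
Log2 change, labelled starved minus labelled fed (x axis), of each of the 24 genes (y axis) in antennae (left) and brain (right), with 95% intervals from the limma fits. Filled points are called: 10 in antennae and 7 in brain, all above 0. Rpt3 lies below 0 in both tissues and is not called.

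Prosalpha4, an alpha subunit of the core ring, rose in both tissues. In antennae its levels were 3.40, 3.52, 3.72 and 3.53 on arrays labelled starved and 2.96, 3.19, 3.10 and 3.13 on those labelled fed. In brain they were 2.0, 1.89, 1.99 and 2.03 against 1.38, 1.53, 1.53 and 1.79. The arrays of both labels did not overlap in either tissue. Prosalpha4 rose by 0.45 in antennae (SE 0.085, adjusted p = 0.00734) and by 0.42 in brain (SE 0.096, adjusted p = 0.0134), and both calls held in all 8 fits of each tissue that left out 1 array. The other called alpha subunits rose by 0.44 (Prosalpha1), 0.42 (Prosalpha7) and 0.33 (Prosalpha2) in antennae, and by 0.31 (Prosalpha6), 0.30 (Prosalpha1) and 0.25 (Prosalpha7) in brain. In antennae these calls held in 8, 8 and 6 of the 8 fits without 1 array, and in brain in 3, 2 and 1. The other probes of Prosalpha1 and Prosalpha7 changed by 0.31 and 0.13 in antennae and were not called there. Prosalpha6 in antennae (0.37), Prosalpha2 in brain (0.13) and Prosalpha3 in antennae (0.28) and brain (0.16) were not called.

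The catalytic beta subunits rose in antennae only to a small extent. Prosbeta5 had levels of 3.69, 3.72, 3.71 and 3.61 in antennae labelled starved against 3.45, 3.44, 3.49 and 3.46 labelled fed, a change of 0.22 (SE 0.055, adjusted p = 0.019) with no overlap. In brain its levels were 2.17, 2.17, 2.18 and 2.02 against 2.04, 2.10, 2.17 and 2.13. These overlapped, and the change of 0.027 was not called (95% interval -0.14 to 0.19, adjusted p = 0.791). Without replicate 2 of the antennae labelled starved the antennal change was 0.21 and was not called.

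Prosbeta2 had levels of 3.96, 4.05, 4.14 and 3.96 in antennae labelled starved and 3.58, 3.68, 3.85 and 3.84 in those labelled fed, a change of 0.29 (SE 0.083, adjusted p = 0.0324). Its call was lost without replicate 2 (change 0.28) or 3 (0.25) of the labelled starved arrays and without replicate 1 (0.24) or 2 (0.27) of the labelled fed ones. In brain its levels were 2.48, 2.39, 2.54 and 2.68 against 2.19, 2.24, 2.30 and 2.50, which overlap, and the change of 0.21 was not called (SE 0.097, adjusted p = 0.123). Prosbeta3, a structural subunit of the same ring, had levels of 1.10, 1.24, 1.11 and 0.91 against 0.49, 0.88, 0.90 and 0.89 in antennae. The groups were apart by a narrow gap, the change was 0.30 (SE 0.11), and it was not called (adjusted p = 0.0778). In brain it had levels of -0.22, -0.45, -0.23 and -0.35 against -0.52, -0.58, -0.45 and -0.45, a change of 0.18 (adjusted p = 0.107). Prosbeta6, the remaining beta subunit, had changes of 0.23 and 0.15 and was not called in either tissue.

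Rpt1 was the ATPase with the largest change. In antennae its brighter probe gave 2.82, 3.04, 3.11 and 2.88 on arrays labelled starved and 2.22, 2.66, 2.53 and 2.66 on those labelled fed, with no overlap and a rise of 0.45 (SE 0.12, adjusted p = 0.0232). In brain the levels were 2.23, 2.02, 2.28 and 2.27 against 1.74, 1.67, 1.82 and 2.07. Here replicate 4 labelled fed reached into the labelled starved arrays, and the rise was 0.37 (SE 0.11, adjusted p = 0.0314). In antennae the call was lost without replicate 2 (change 0.42) or 3 (0.40) labelled starved or replicate 3 (0.45) labelled fed, and in brain without any 1 of replicates 1, 3 and 4 labelled starved or 1, 2 and 3 labelled fed (0.32 to 0.37). The other probe of Rpt1 changed by 0.040 in antennae (adjusted p = 0.786), where the groups overlapped, and by -0.30 in brain. Among the other ATPases, Rpt6 and Rpt2 had changes of 0.23 and 0.18 in antennae, and of 0.18 and 0.030 in brain. Rpt4 had changes of 0.075 and -0.046. None of these was called.

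Rpt3 was the exception in direction by the probe that was brighter over the 16 arrays, though not by its other probe. Its levels were 2.17, 2.11, 2.28 and 2.30 in antennae labelled starved and 2.48, 2.29, 2.47 and 2.41 in those labelled fed, so that the highest of the former just passed the lowest of the latter. The difference of -0.20 was not called (SE 0.073, adjusted p = 0.0701), and neither was that of -0.21 in brain (adjusted p = 0.156). When arrays were centred on the median instead, the antennal difference was 0.0071. The other probe of Rpt3 gave a difference of -0.038 in antennae and of 0.29 in brain, where it was higher on all 4 slides but not called (adjusted p = 0.108).

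Of the other base subunits, Rpn10 was the most even. In antennae it gave 2.87, 2.91, 2.86 and 2.91 on arrays labelled starved against 2.46, 2.49, 2.54 and 2.49 on those labelled fed. The 2 groups lay far apart relative to their spread. Rpn10 rose by 0.40 (SE 0.053, adjusted p = 0.00216), the lowest adjusted p of the 24 genes in antennae, and the call held in all 8 fits without 1 array. In brain its levels were 2.42, 2.28, 2.23 and 2.50 against 2.04, 2.08, 2.11 and 2.29, with a change of 0.23 that was not called (SE 0.092, adjusted p = 0.0893) but was without replicate 4 labelled fed (0.28). The scaffold subunits Rpn1 and Rpn2 had changes of 0.011 and 0.12 in antennae and of 0.060 and 0.031 in brain, none of them called. The other probe of Rpn2 rose by 0.34 in antennae (adjusted p = 0.00382) with no overlap.

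In the lid, Rpn7, a structural subunit, had the largest change in antennae. Its levels were 2.20, 2.37, 2.69 and 2.66 on arrays labelled starved and 1.90, 1.99, 2.10 and 1.98 on those labelled fed, which do not overlap, although the labelled starved arrays were spread more widely. Rpn7 rose by 0.48 (SE 0.12, adjusted p = 0.0173), or 1.40-fold, and the call held in all 8 fits without 1 array. In brain it had levels of 0.93, 1.05, 0.94 and 0.90 against 0.72, 0.48, 0.61 and 0.76, again without overlap, and rose by 0.31 (SE 0.084, adjusted p = 0.0243). That call was lost without replicate 1, 2 or 3 labelled starved and without replicate 2 or 3 labelled fed (0.26 to 0.32).

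Rpn11, the deubiquitinating enzyme of the lid, had the largest change in brain. Its levels there were 2.45, 2.18, 2.43 and 2.44 against 1.86, 1.84, 1.93 and 2.05, with no overlap, and it rose by 0.46 (SE 0.090, adjusted p = 0.00803), a call that held in all 8 fits without 1 array. In antennae the levels were 3.04, 3.38, 3.60 and 3.33 against 2.69, 3.07, 3.03 and 2.99. The lowest labelled starved array fell within the labelled fed ones, and the change of 0.39 was not called (SE 0.13, adjusted p = 0.0543), but was without replicate 1 labelled starved (0.49). Of the remaining lid genes, Rpn6 rose by 0.42 in antennae (adjusted p = 0.0129), and its change of 0.26 in brain was not called. The other probe of Rpn6 changed by 0.095 in antennae and -0.13 in brain and was called in neither. Rpn5 (0.28 and 0.33), Rpn12 (0.18 and 0.014) and Rpn9 (0.050 and 0.068) were not called in either tissue. The other probe of Rpn12 rose by 0.42 in antennae (adjusted p = 0.0156) with no overlap.

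Whether the change between the labels differed between the tissues was tested with the interaction in a fit over all 16 arrays. Of the 24 genes, 0 were called by limma, against 3.21% of all genes tested, and 1 (Prosbeta5) had an unadjusted p under 0.05. The difference, antennae minus brain, ran from -0.065 for Rpn11 to 0.20 for Prosalpha2, and the lowest adjusted p was 0.222. The widest 95% intervals reached -0.42 and 0.50, so that differences as large as the changes themselves could not be told from 0 for those genes. Calls in 1 tissue and not in the other are therefore not shown to differ.

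The counts depended on single arrays, more so in brain. Within the 4 slides, 23, 23, 23 and 21 of 24 genes were higher on the array labelled starved in antennae, with medians of 0.34, 0.28, 0.30 and 0.18. In brain, 23 of 24, 24 of 24, 19 of 23 and 14 of 24 were higher, with medians of 0.29, 0.22, 0.22 and 0.049. The last slide stood apart in brain, where replicate 4 labelled fed had the highest level of its group for 20 of 24 genes, and without it 11 genes were called higher. Leaving out another brain array gave 2 (replicate 1 or 3 labelled starved, 2 or 3 labelled fed), 3 (replicate 1 labelled fed), 4 (replicate 4 labelled starved) or 5 (replicate 2 labelled starved) called genes. In antennae the count fell to 6 without replicate 2 labelled starved and lay between 8 and 13 without any other array.

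The subunit genes moved together from array to array also within groups. Over the 16 arrays, the deviations of 23 genes from their group means had a mean pairwise correlation of 0.46, beside 0.0083 over 16511 genes tested. Prosalpha3, with a value left out, was not included. The arrays share slide, extraction and scaling across genes, so this is a description and was not tested. The alpha subunits had the highest mean correlation (0.64, 5 genes) and the other base subunits the lowest (0.35, 3 genes).

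For 15 of the 24 genes a second probe allowed a check within the gene. In antennae the median change was 0.28 for the brighter and 0.13 for the other probes, and 0 of the 15 differences between probes were called (17.7% of 3912 gene pairs of probes were). In brain the medians were 0.21 and -0.024, the signs were opposite for 8 genes, and 6 differences were called (27.4% of 4096). In 5 of these the brighter probe rose more (Prosalpha7, Rpn5, Rpn6, Rpn9 and Rpt1), against 18.8% of all pairs, and in 1, Rpt3, it rose less. Brighter here means over all 16 arrays. On the brain arrays labelled starved the mean level was 1.03 by that probe of Rpt3 and 1.42 by the other, and on those labelled fed 1.24 and 1.12. The test of probe pairs was added after the data were seen. Of the 15 other probes, 4 were called higher in antennae (Prosalpha4, Rpn2, Rpn11 and Rpn12), beside 11.1% of all genes tested. In brain 2 were (Prosalpha4 and Rpn11), beside 11.6%, which is near that share. None was called lower, beside 17.2% and 20.9%. The shares over all genes are by the brightest probe of each gene. Of the 15 genes, 6 in antennae and 5 in brain were called higher by the brighter probe. Both probes were called higher for 1 of these in antennae (Prosalpha4) and for 2 in brain (Prosalpha4 and Rpn11).

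Rpt1 and Prosalpha4 show both cases. The other probe of Rpt1 gave 0.70, 0.89, 0.76 and 0.74 in brain labelled starved against 1.20, 0.79, 1.10 and 1.17 labelled fed, so that 3 of 4 slides went down where the brighter probe went up on all 4. The changes were -0.30 and 0.37, and the difference between the probes was 0.67 (SE 0.12, adjusted p = 0.0061). The other probe of Prosalpha4 gave 0.38, 0.18, 0.22 and 0.38 against -0.37, -0.18, -0.21 and 0.10, which do not overlap, a rise of 0.45 (adjusted p = 0.0176) next to 0.42 by the brighter probe. In antennae it gave 1.76, 1.94, 1.93 and 1.80 against 1.08, 1.28, 1.17 and 1.26, a rise of 0.66 (adjusted p = 0.00124) next to 0.45. What the probes of a gene read, such as different transcripts, was not tested.

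**Figure D4:**
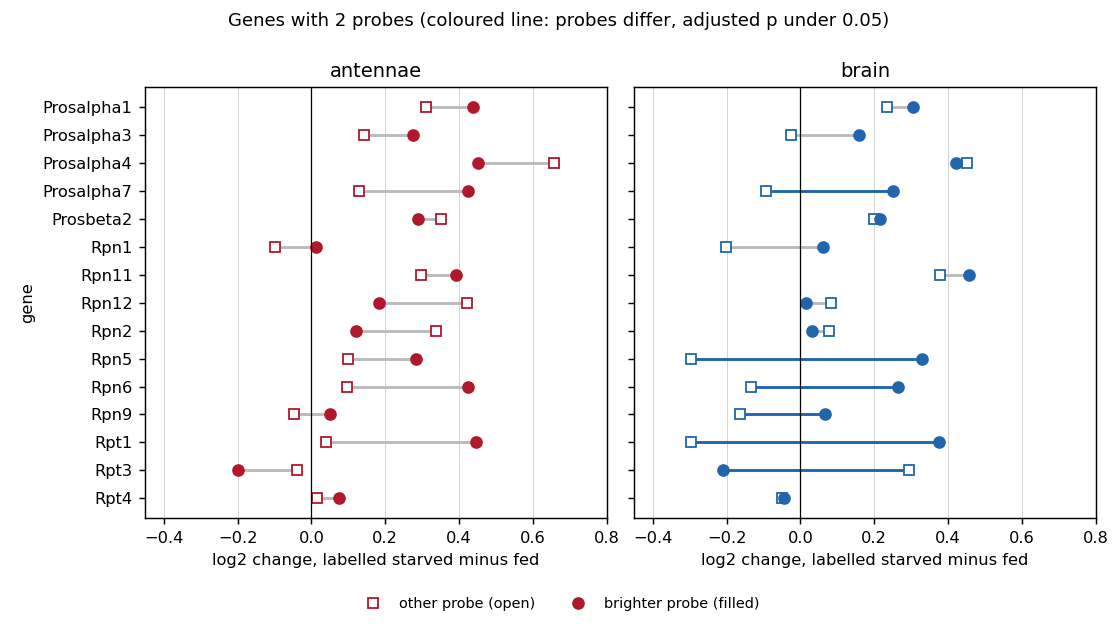
Log2 change, labelled starved minus labelled fed (x axis), by the brighter probe (filled circle) and the other probe (open square) of each of the 15 genes with 2 probes (y axis), in antennae (left) and brain (right). Coloured lines mark the 6 genes, all in brain, whose probes differ; for 5 of them the brighter probe lies to the right.

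Markers of other cell types also differed between the labels. In brain, 5 of 5 fat body markers tested (of 7 on the array, 1 of which was above background on no array) were called higher in arrays labelled starved, by 1.25 to 2.57, and their summed level was 6.61 to 7.46 against 4.89 to 5.71. In antennae, 4 of 7 neuronal markers tested were called lower in arrays labelled starved, with a summed level of 4.10 to 4.56 against 4.34 to 4.53, and in brain 1 of 9 was called higher and 1 lower. Of 6 muscle markers, 1 was called lower in antennae, and 2 were called higher and 1 lower in brain. Of 4 fat body markers tested in antennae, 1 was called higher. The part of these cells in the changes of the subunit genes was not tested.

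Subunits that the files hold under other names were taken from a separate list. Of these, Rpn3 and Rpn8 of the regulatory particle rose in both tissues, by 0.56 and 0.39 in antennae and by 0.29 and 0.31 in brain, and Sem1 rose by 0.36 in antennae. Prosbeta1, the third catalytic subunit, with caspase-like activity, had changes of 0.25 and 0.19 and was not called, as were Prosalpha5 (0.20 and -0.071) and Rpt5 (0.17 and 0.049). Of these 6, 3 were called higher in antennae labelled starved and 2 in brain labelled starved, beside 11.1% and 11.6% of all genes tested. All 6 were called higher in antennae than in brain labelled fed, by 0.72 for Rpn8 to 1.86 for Prosalpha5. The share over all genes tested was 33.3%. Prosbeta4, Prosbeta7 and Rpn13, filed under gene numbers, were also higher in antennae, by 1.64, 1.23 and 0.83, and were called in neither tissue between the labels. The probe of Prosalpha1R rose by 0.38 in antennae and 0.29 in brain.

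Over the other 20 genes of the pathway list, 2 were called higher in antennae and 3 in brain, and none lower, which is 10% and 15% beside the 11.1% and 11.6% of all genes tested, with median changes of 0.15 and 0.11. TER94, the segregase that pulls tagged proteins out of complexes, rose by 0.37 and 0.29, and Usp14, a deubiquitinating enzyme that binds the proteasome, by 0.49 in antennae. RpS27A and RpL40, which encode ubiquitin fused to a ribosomal protein, rose by 0.51 and 0.24 in brain. The 3 genes for assembly and activation (Pomp, REG and PI31) and the 4 regulators of subunit transcription, with cnc among them, were called in neither tissue. Between the tissues, 14 of the 20 were called higher in antennae labelled fed, beside 33.3% of all genes, and 1, Keap1, lower. The factor cnc, which in Drosophila drives subunit genes under proteasome stress, was higher in antennae by 1.49, and Ubi-p5E, RpS27A, RpL40, Uba1 and Rad23 were not called.

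The 6 extra copies, of which Prosalpha4T1 and Prosalpha4T2 are filed as Pros28.1A and Pros28.1B, were dim. Prosalpha3T, Prosalpha4T2, Prosalpha6T and Prosbeta5R1 were well above background on 0 of 16 arrays, Prosalpha4T1 on 2 of the 4 brain arrays labelled fed, and Rpt3R on 2 brain arrays labelled starved and 1 labelled fed. No group had all 4 arrays above background for any of them, so they were not tested and no fold is given. The levels of Prosalpha4T1 in brain labelled fed were -5.38, -5.32, -8.92 and -8.22, a pair of high and a pair of low arrays. Rpt3R gave -6.46, -6.92, -6.27 and -6.57 in brain labelled starved and -6.88, -6.53, -6.73 and -6.38 in that labelled fed, which overlap. Of 14 testis markers, 10 were above background on all 4 arrays of antennae labelled fed and 8 on those of each brain group. Among further copies filed under gene numbers, Prosbeta2R2 was above background on all antennal arrays and on 0 brain arrays, and its level fell by 0.93 in antennae labelled starved.

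**Figure D5:**
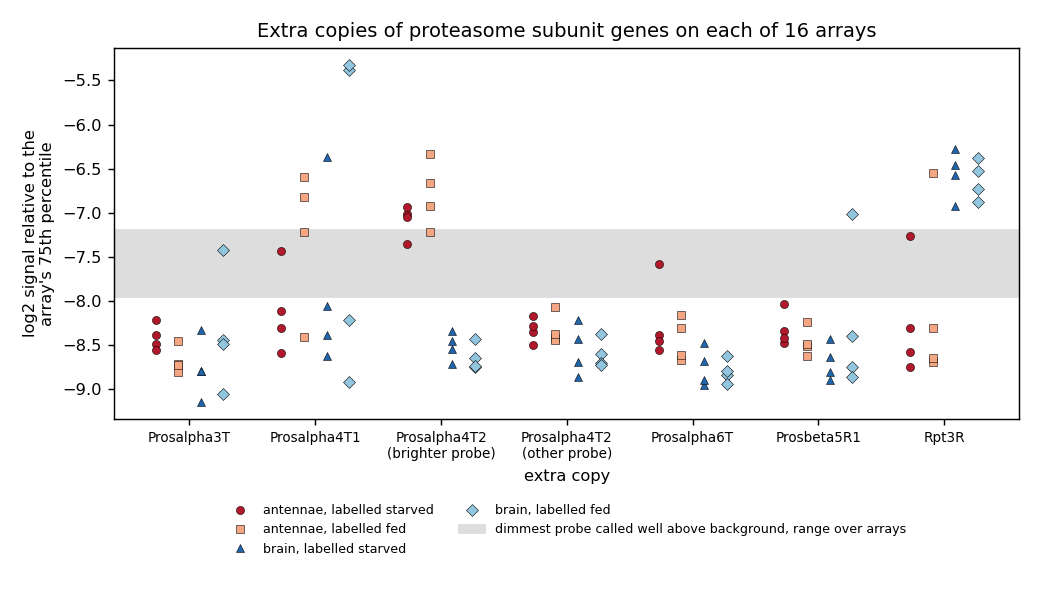
Log2 signal relative to the 75th percentile of the array (y axis) on each of the 16 arrays for the 7 probes of the 6 extra copies (x axis). The grey band is the range over arrays of the dimmest probe called well above background. Most points lie at or below the band, and the 2 highest are Prosalpha4T1 on brain arrays labelled fed, at -5.32 and -5.38.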

How the data were processed

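Total RNA was labelled with Cy3 and hybridised to 1 array per extract. The authors deposited the output of Agilent Feature Extraction 9.1, in which the intensity of each of 45020 spots (1417 of them controls) is background subtracted and detrended within the array but not scaled between arrays. Log2 values deposited in a second table differed from the log2 of these intensities by a constant for each array (largest deviation 0) and served as an alternative. Groups and replicate numbers came from the sample titles. Gene names in the files are old and were updated through a RefSeq gene table, which matched 20710 of 32162 probes. The updated names also set which probes were taken as the same gene.

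Outlier spots were dropped. The log2 intensity was set relative to the 75th percentile of the array (43603 spots, without controls), following the methods of the study, and averaged over the spots of a probe. A probe was tested when well above background (in at least 0.5 of its spots) on all 4 arrays of at least 1 group compared. Groups were compared by moderated linear models (lmFit, eBayes) of limma 3.58.1 under R 4.3.3, two-sided, with Benjamini-Hochberg adjustment over all probes tested. This left 14894 genes tested in antennae, 15823 in brain, 16406 and 15475 between tissues labelled fed and labelled starved, and 16523 for the interaction. The scripts were tested on simulated data. Each extract counted as 1 replicate. The number of arrays limits the precision. Tables were written with Python 3.11.15, pandas 2.3.3, numpy 2.4.6 and scipy 1.17.1, and figures with matplotlib 3.10.9.

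The members, the pathway and marker lists and the rule for named genes were chosen with earlier results of these data known. The rule gave single-array values to the catalytic core subunits and to the member of each class with the largest absolute change in either tissue. Rpt3, Prosalpha6, Prosalpha4T1 and Rpt3R, and the second probe of Rpt1 and of Prosalpha4, were added after their values were seen. The marker lists covered antenna, brain neurons, glia, fat body, photoreceptors, muscle and testis. Glia had 0 of 4 markers called between the labels in antennae and 1 in brain, photoreceptors 0 of 6 in both. Of the antennal list, 2 of 10 were called higher in antennae and 1 of 9 higher and 1 lower in brain labelled starved. Of the testis list, 2 of 10 and 2 of 8 tested were called lower.

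Replicate numbers were also slides. Over all probes tested, samples of the same number did not deviate together. Over the 4 pairs of groups compared, the correlations of their deviations from group means ran from -0.29 to 0.30. For the subunit genes, some arrays of the same number ranked alike. In antennae, replicate 1 was the lowest of its group for 14 genes labelled starved and 19 labelled fed. Replicate 3 was the highest there for 13 and 11. In brain, replicate 2 was the lowest for 13 and 13. Replicate 4 of brain was the lowest for 10 labelled starved but the highest for 20 labelled fed. The block fits stand with the other alternatives: other scalings (median centring, quantile, percentile over detected probes), normexp background correction (offset 50), other filters, probe averaging, array weights, the methods' t-test, 1 fit over 16 arrays, and each array left out. No sequence is printed, since no probe or genome sequence was used here.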

Additional observations from a re-analysis of the deposited data

Results flagged for a closer look

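In 9 of 135 groups of 4 arrays searched (6.67%), 1 array lay apart from the other 3 by more than Dixon's 95% critical value for its share of the group's range. Chance alone marks about 1 in 20 groups. The genes share arrays and moved together, so the groups are not independent and the percentage cannot be weighed against that rate. In antennae labelled fed, replicate 1 was low for Prosalpha6 (share 0.908, level 3.51 against 3.87 to 3.91), Prosbeta3 (0.949, level 0.49 against 0.88 to 0.90) and Rpt2 (0.909, level 1.10 against 1.36 to 1.38). The median deviation of the 24 subunit genes from their means over 16 arrays was low on the same array (0.888, at 0.31 against 0.53 to 0.55), which had the lowest level of its group for 19 of the 24. Prosalpha1 was apart in 3 groups: replicate 3 was high in antennae labelled starved (0.853), replicate 2 low in brain labelled starved (0.929) and replicate 4 high in brain labelled fed (0.832). Replicate 2 of brain labelled starved was also low for Rpn11 (0.908, level 2.18 against 2.43 to 2.45). Replicate 4 of that group was low for Prosbeta5 (0.905, level 2.02 against 2.17 to 2.18).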

How the results depend on the processing

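Counts of calls moved with the scaling and with single arrays, while directions mostly did not. Centring arrays on the median raised the median change of all genes by 0.21 in antennae and 0.20 in brain. The subunit genes then had medians of 0.49 and 0.39 with 22 and 7 called higher, while their distance from all genes (0.30 and 0.25) cannot change with a shift of whole arrays. With quantile normalization the medians were 0.23 and 0.14 and this distance was 0.18 and 0.12. Averaging the probes of a gene gave a brain median of 0.10 with 5 subunit genes called higher, beside 1697 of all genes. Over all genes, centring on the median turned 1651 higher and 2567 lower calls in antennae into 5252 and 1205. In brain it turned 1835 and 3312 into 2568 and 1827. Quantile normalization gave 2455 higher and 1403 lower calls in antennae and 2090 and 1966 in brain, and normexp 1183 and 1152 in antennae. Array weights gave 14 subunit genes called higher in brain, where 2538 of all genes were called higher and 4595 lower. They gave 1 called lower (Rpt3) in antennae, where 2951 of all genes were called lower. With no filter on dim probes, 4 subunit genes were called higher in brain, beside 1324 of all genes. Of the extra copies, Prosalpha4T2 was then called higher and Rpt3R lower in antennae than in brain under each label. The median between tissues labelled starved was 1.22. Quantile normalization gave 1.24 for that median. Normexp and no filter raised the median of all genes there by 0.15 each. With the replicate block, 13 subunit genes were called higher in antennae and 5 in brain, beside 1450 and 1397 of all genes. Between tissues 24 were called under each label, beside 5451 of all genes called higher labelled fed and 5460 labelled starved. For the interaction 0 were called. Rpn11 in antennae was called with the block and Rpn7 in brain was not. Over all probes tested, samples of 1 number did not deviate together in the 4 pairs of groups checked. For the subunit genes, some arrays of 1 number ranked alike. By the methods, each extraction used 50 flies, with 100 antennae and 50 brains. Whether antennae and brains of 1 number came from the same flies is not stated beyond that.

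Leaving out 1 array gave 6 to 13 genes called higher in antennae and 2 to 11 in brain, medians of 0.22 to 0.32 and 0.16 to 0.23, and 24 in each tissue comparison. No gene changed sign between the tissues. Between the labels, over all settings and arrays left out, 3 of 24 genes changed sign in antennae (Rpn1, Rpn9, Rpt3) and 9 in brain (Prosalpha3, Prosbeta5, Rpn1, Rpn12, Rpn2, Rpn9, Rpt2, Rpt3, Rpt4), none of them called after the change. Among the 8 genes chosen by rule, those that turned were Prosbeta5 in brain (-0.028, quantile) and the interactions of Rpt1 (-0.011 with array weights, -0.028 to 0.12 when 1 array was left out, below 0 without antennae labelled fed replicate 1 or brain labelled fed replicate 4), of Prosalpha4 (-0.019 quantile, -0.062 array weights, -0.049 to 0.085 when 1 array was left out) and of Rpn11 (-0.15 to 0.034 when 1 array was left out, above 0 without antennae labelled starved replicate 1). For the 8 genes chosen by rule, 449 values under other settings with all arrays kept direction and call, 12 gained and 7 lost a call, and 4 turned. When 1 array was left out, 355 kept both, 3 gained and 19 lost a call, and 7 turned.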
